A study of Mus musculus with 6 samples.

Results

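Invasive bladder carcinoma was compared with carcinoma in situ on 4 arrays, 2 for each lesion, out of 6 arrays in the study. The arrays were chosen by their titles alone, and the comparison was made over all 18193 genes with a named probe set. Both lesions came from FVB/N mice that were 8 months old and carried the genotype H-ras+/-, p53-/-, which the titles call double transgene. The other 2 arrays held normal urothelium of wild-type FVB/N mice of the same age and serve here as the level without a lesion. All tissue was lifted by laser capture from frozen, stained bladder sections, and 100 ng of RNA per sample was labelled for arrays that read transcripts near their 3' end. The submitters named carcinoma in situ as the step of genesis and invasive tumours as the step of progression. The promoter that drives the transgene and the number of animals behind each array were not given in the sources used here, and transcripts of the altered genes themselves were not analysed here.

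A carcinoma in situ of the bladder is a flat lesion of highly abnormal cells that stays within the urothelium, the layered lining of the bladder. Its cells rest on a basement membrane, and beneath that membrane lies a stroma of fibroblasts, collagen, vessels and leukocytes. Invasion means that carcinoma cells cross this membrane into the stroma and the muscle, where matrix-degrading proteases and fibroblasts that deposit new matrix are typically found. A piece cut out of an invasive tumour can therefore hold stroma between the nests of carcinoma cells, while a piece of a flat lesion can be nearly pure epithelium. For that reason the genes are described below by the cell types that are known to express them. Fewer cells of a type and less RNA per cell cannot be told apart in such tissue.

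The values are log2 signals, so a difference of 1 unit is a 2-fold difference, and array medians lay between 6.07 and 6.14. Arrays of the same group matched to different degrees: the SD over genes of the log2 difference was 0.22 between the carcinoma in situ arrays and 0.42 between the invasive arrays, beside 0.69 between the normal arrays. The labels did not say whether the closely matching carcinoma in situ arrays came from different animals or from repeated runs of 1 sample, so p-values measured a spread that may be partly technical. Sex-linked transcripts separated the lesions. Xist, the transcript that coats the inactive X chromosome, read 13.17 and 13.33 in carcinoma in situ, and 10.28 and 6.43 in invasive carcinoma. Eif2s3y, a Y-linked gene, read 4.49 and 3.37 in carcinoma in situ, and 8.52 and 7.83 in invasive carcinoma, and the Y-linked Kdm5d read 2.90 and 2.84 against 6.58 and 5.96. The carcinoma in situ arrays thus carried high Xist with low Y-linked signal, invasive array 2 the reverse, and invasive array 1 signal of both kinds. The part of sex in any difference between the lesions was not tested.

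More genes passed the test as higher in invasive carcinoma than as lower, although over all genes the differences leaned slightly down. In limma's moderated test 999 of 18193 genes passed an adjusted p under 0.05 and are called here, which is 5.49% of all. Of these 760 were higher in invasive carcinoma (4.18%) and 239 were lower (1.31%). At an unadjusted p under 0.05 there were 3342 genes. The median difference over all genes was -0.03 on the log2 scale, and 940 of the called genes lay at least 2-fold apart. Arrays of the lesions that do not overlap are common with so few samples: both invasive arrays were higher for 4809 genes (26.4%) and lower for 5716 (31.4%). A fit of the lesion arrays alone called 1485 genes higher and 1008 lower. The count depended on the close carcinoma in situ arrays: with these averaged to 1 sample, limma called 55 genes (0.302%), 54 of them higher, and 1711 passed an unadjusted p under 0.05. It was 89 without carcinoma in situ array 1, 50 without array 2, 803 without invasive array 1 and 428 without invasive array 2. In every one of these fits 50 genes (0.275%) were called. They include the proteases Mmp3, Mmp13 and Mmp10, the matrix genes Lox, Col5a2, Fbln2 and Dcn, the keratin gene Krt17 and the secreted antagonists Grem1, Sfrp2 and Wif1, and the single lower gene among them is Fbp1.

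Each gene is given by 1 probe set, the brightest, and probe sets of a gene did not always show the same size of change. Of 507 called genes with more than 1 probe set, 211 (41.6%) had no other probe set that moved by at least 0.5 times as much in the same direction. Among genes described below, the largest change on any other probe set was 1.92 for Dcn, 2.55 for Ankrd1, 2.64 for Hs6st2, 1.42 for Loxl1, 1.75 for Pdgfrb, 1.51 for Pdgfra, 1.48 for Col12a1 and 1.81 for Tnc. It was 1.47 for Mfap5, 0.38 for Kit, 0.38 for Tgfbr1, 1.47 for Vcam1 and 0.28 for Steap4, and among the falls -0.18 for Prom2 and -0.66 for Acer2. The other probe sets of the Y-linked genes Eif2s3y and Kdm5d reached 0.21 and 0.17. Values for these genes, and for those where the text gives another probe set, therefore hold for the probe set shown, and the cause of the disagreement was not tested.

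Pan-epithelial genes were high in both lesions and leaned lower in invasive carcinoma, whereas type I collagen and Pdgfrb were high only on the invasive arrays among the lesions. Of 21 pan-epithelial genes 0 were called, with a median of -0.63. Among them 12 had both invasive arrays below both carcinoma in situ arrays and 1 the reverse, beside 31.4% and 26.4% over all genes. Epcam, an adhesion molecule of epithelial cells, read 12.36 and 12.73 in carcinoma in situ and 13.14 and 12.01 in invasive carcinoma, a difference of 0.03 ± 0.46 (SE, adjusted p = 0.987). Cdh1, the epithelial cadherin of cell junctions, differed by 0.03 ± 0.28 and Krt8, a keratin of simple epithelia, by -0.06 ± 0.21. Krt18, the partner of Krt8, read 13.91 and 13.91 against 13.39 and 13.17 (-0.63 ± 0.18, adjusted p = 0.134). The arrays of the lesions overlapped for the first 3 of these genes but not for Krt18, and none was called. Col1a1, which encodes a chain of type I collagen, read 6.71 and 6.60 in carcinoma in situ and 11.42 and 12.51 in invasive carcinoma, a rise of 5.31 ± 0.36 (39.7-fold, adjusted p = 0.00206). Pdgfrb, a growth factor receptor of fibroblasts and pericytes, read 7.28 and 6.91 against 10.15 and 11.41, a rise of 3.69 ± 0.44 (adjusted p = 0.0101). Both stromal genes were higher in invasive array 2 than in invasive array 1, and Epcam and Cdh1 were lower there.

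**Figure D1:**
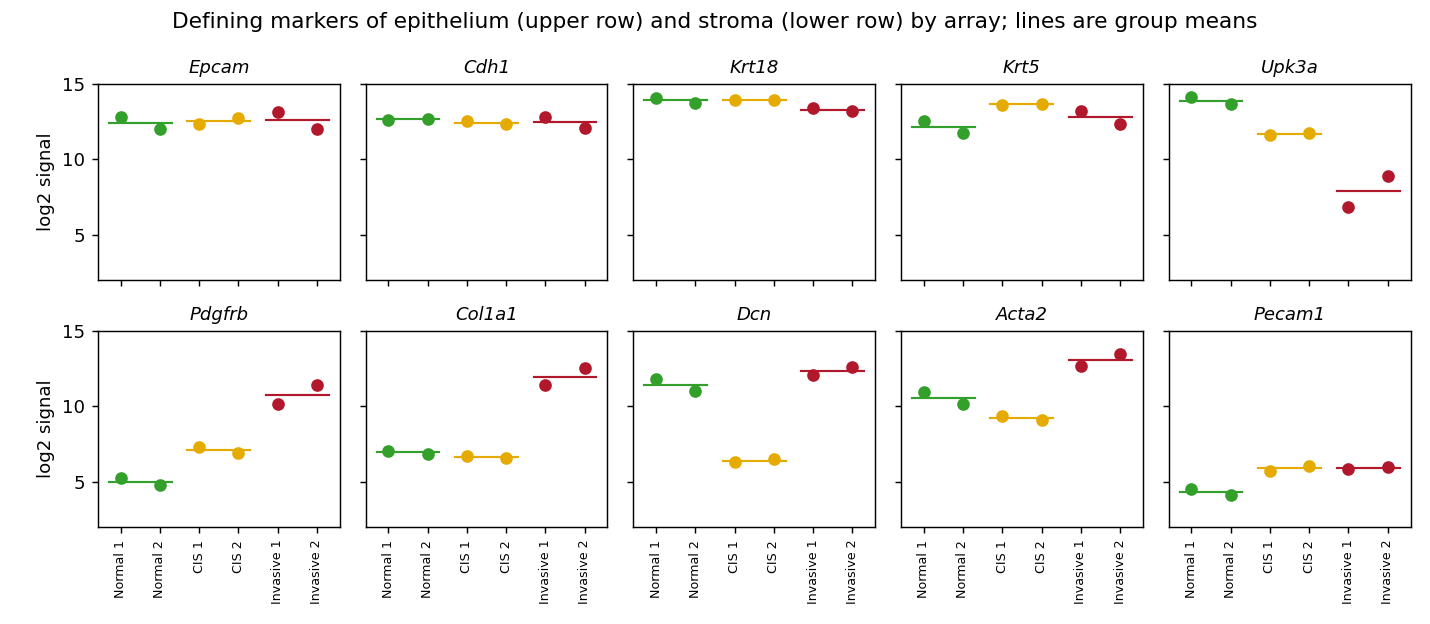
Log2 signal of 5 epithelial genes (upper row) and 5 stromal genes (lower row) on each of the 6 arrays; points are arrays and lines are group means. Epcam and Cdh1 lie between 11.97 and 13.14 on every array, Upk3a is lowest on the invasive arrays, and Col1a1 is above 11 only on them.

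Extracellular matrix was the list in which the most members rose. Of 22 measured matrix genes 18 rose, 0 fell and 4 were not called, with a median of 4.25 beside -0.03 over all genes. Lox, lysyl oxidase, which cross-links collagen fibres, read 5.29 and 5.64 in carcinoma in situ and 10.32 and 10.49 in invasive carcinoma (4.94 ± 0.21, 30.6-fold, adjusted p = 0.000797). Loxl1, its relative in elastic fibre assembly, read 4.67 and 4.37 against 9.13 and 10.68 (5.39 ± 0.50, adjusted p = 0.00484). Vcan, the proteoglycan versican, read 4.66 and 4.98 against 9.91 and 10.36 (5.32 ± 0.47, adjusted p = 0.00431). For all 3 genes the lesions were separated by more than 4 log2 units between the nearest arrays. The collagen chains Col5a1, Col5a2, Col1a2, Col8a1, Col12a1, Col3a1 and Col6a1 rose by 5.16, 4.94, 4.89, 4.85, 4.70, 4.55 and 4.54. Fn1, fibronectin, rose by less (3.08 ± 0.24) from a level of 9.39 and 9.63 in carcinoma in situ, and the matricellular genes Postn and Tnc rose by 3.61 ± 0.25 and 3.70 ± 0.52. Thbs1, a matricellular protein that activates latent TGF-beta, differed by 0.06 and was not called. With the carcinoma in situ arrays averaged, 3 of the 18 calls remained.

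Of 18 fibroblast genes 7 rose, 0 fell and 11 were not called, with a median of 2.71. Fbln2, a matrix glycoprotein of fibroblasts, read 6.12 and 5.995 in carcinoma in situ and 11.59 and 12.48 in invasive carcinoma (5.98 ± 0.35, 63.1-fold, adjusted p = 0.00175). Dcn, the collagen-binding proteoglycan decorin, read 6.32 and 6.50 against 12.08 and 12.59 (5.93 ± 0.32, 60.8-fold, adjusted p = 0.00138), and 11.79 and 11.001 in normal urothelium. Decorin was thus lowest in carcinoma in situ, and both invasive arrays lay above both normal arrays. Pdgfra, a receptor that marks fibroblasts, read 6.14 and 5.996 against 9.70 and 9.85 (3.71 ± 0.62, adjusted p = 0.0292). Twist1 (3.43 ± 0.25) and Prrx1 (3.51), transcription factors of mesenchyme, and Mfap5 (3.73), a microfibril protein, rose as well. The members not called include some on which the invasive arrays stood far apart: Dpt, dermatopontin, read 6.75 in array 1 and 10.39 in array 2, and Lum, the proteoglycan lumican, 6.62 and 9.06. With the carcinoma in situ arrays averaged, Fbln2 and Dcn remained called.

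Contractile genes were called higher in part and vessel genes were not. Of 14 smooth muscle genes 3 rose and 1 fell, with a median of 0.78. Tagln, the actin-binding protein transgelin, read 5.78 and 5.65 in carcinoma in situ and 9.56 and 11.20 in invasive carcinoma (4.67 ± 0.66, adjusted p = 0.0175). Acta2, the smooth muscle actin that activated fibroblasts share with muscle, read 9.36 and 9.08 against 12.67 and 13.45 (3.84 ± 0.38, adjusted p = 0.00598), although its other 2 probe sets differed by 0.09 and 0.27. Myh11, the myosin heavy chain restricted to mature smooth muscle, read 4.97 and 4.72 against 5.48 and 5.88 and was not called. Myl9, a myosin light chain, rose too (3.02), Smtn, smoothelin, fell by 1.03, and the visceral actin gene Actg2 differed by 2.105 without a call. Of the 14 genes 11 had both invasive arrays higher and 2 had both lower. Of 15 endothelial genes 0 rose, and 1 fell, with a median of 0.23: Vwf, the von Willebrand factor of vessel walls, read 8.10 and 7.95 against 6.93 and 6.34 (-1.39 ± 0.24, adjusted p = 0.0306). Pecam1, an adhesion molecule of endothelium, read 5.71 and 6.07 against 5.87 and 5.95, and Cdh5, the cadherin of vessels, 7.73 and 7.72 against 8.24 and 8.18. Without a call, most endothelial genes leaned up: 10 of 15 had both invasive arrays higher and 2 had both lower. Over all genes these shares were 26.4% and 31.4%. Of 8 pericyte genes Abcc9, a potassium channel subunit, rose by 2.37 and Rgs5, a regulator of G protein signalling, fell by 2.58. The vessel and pericyte lists thus held 0 and 1 called rises beside 18 in the matrix list.

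Among leukocyte lists the macrophage and mast cell lists moved most. Of 20 macrophage genes 7 rose, 0 fell and 13 were not called, with a median of 1.83. Mrc1, a mannose receptor, read 5.64 and 5.98 in carcinoma in situ and 8.49 and 9.45 in invasive carcinoma (3.16 ± 0.48, adjusted p = 0.0210). C1qc, a chain of the first complement component, read 7.76 and 7.71 against 9.58 and 10.67 (2.39 ± 0.39, adjusted p = 0.0265). The defining gene Adgre1 read 5.63 and 5.71 against 6.47 and 7.36 and was not called (1.24 ± 0.31, adjusted p = 0.0965), nor was Ptprc, the antigen of all leukocytes (1.95 ± 0.62, adjusted p = 0.164). All 4 genes were higher in both invasive arrays than in both carcinoma in situ arrays, and each was higher in invasive array 2 than in array 1. Of 7 mast cell genes 5 rose, with a median of 2.73. Cma1, a chymase of mast cell granules, read 5.70 and 5.64 against 8.91 and 8.49 (3.03 ± 0.22, adjusted p = 0.00255), Cpa3, a carboxypeptidase of the same granules, 5.85 and 5.96 against 8.77 and 8.48 (2.73 ± 0.20), and Kit, the stem cell factor receptor, 5.73 and 5.82 against 9.20 and 7.88 (2.77 ± 0.42). These mast cell genes were higher in invasive array 1, the opposite of the macrophage genes. No call of either list remained with the carcinoma in situ arrays averaged.

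The other leukocyte lists held 1 or 2 calls each. Jchain, which joins secreted antibodies into polymers, read 4.11 and 4.45 in carcinoma in situ and 9.04 and 10.52 in invasive carcinoma (5.50 ± 0.77, adjusted p = 0.0167), while the B cell genes Cd79a (-0.08), Ms4a1 (0.37) and Pax5 (-0.10) were not called. Of 14 T and NK cell genes 1 rose, the interleukin-7 receptor gene Il7r (1.38), and Cd3e read 6.40 and 6.48 against 6.55 and 6.86. Of 11 neutrophil genes 2 rose, Ltf, the iron-binding lactoferrin (4.05 ± 0.26), and the lectin gene Clec4d (1.64), and the calprotectin gene S100a8 differed by 1.63 without a call. Lactoferrin is also made by glandular epithelia, so it does not mark neutrophils alone. Of 9 class II and dendritic genes Itgax, an integrin, rose by 1.204 and H2-Eb1, a class II chain, fell by 2.19. In the nerve list Ncam1 (3.10) and Tubb3 (1.66) rose, in the adipocyte list the fatty acid carrier gene Fabp4 fell by 2.11 from 13.30 and 13.34, and 0 of 3 erythroid genes were called.

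Counted over unique genes, 48 of 160 stromal genes rose (30.0%) and 5 fell, with a median of 0.84. Of 93 epithelial genes 6 rose and 6 fell (6.45% each), with a median of -0.63. Of 240 genes that either compartment can express, 53 rose (22.1%) and 4 fell, with a median of 0.14. Over all genes 4.18% were called higher and 1.31% lower. The share of rises was above that over all genes in the stromal, the epithelial and the other lists, and so was the share of falls, at 3.13% of stromal, 6.45% of epithelial and 1.67% of the other genes, each share of falls resting on 4 to 6 genes. Summed over the members of a list before taking log2, the fibroblast signal was 10.09 and 10.09 in carcinoma in situ. It was 13.43 and 14.42 in invasive carcinoma, beside 12.19 and 11.59 in normal urothelium. The sum in normal urothelium follows Dcn, which read 11.79 and 11.001 there. The mean level of the fibroblast list was 6.09 and 5.90 in normal urothelium and 5.56 and 5.57 in carcinoma in situ. The summed matrix signal was 12.55 and 12.59 against 15.72 and 16.52, and the summed macrophage signal 13.14 and 13.13 against 14.60 and 15.25. The summed pan-epithelial signal was 16.74 and 16.81 against 16.74 and 16.17, and the summed luminal signal 15.27 and 15.51 against 14.28 and 13.60. The endothelial sum was 11.84 and 11.72 against 11.98 and 12.27, slightly higher on both invasive arrays. Not every stromal sum was higher in invasive carcinoma. The pericyte sum was 13.58 and 13.76 against 11.75 and 11.85, and the adipocyte sum 13.32 and 13.36 against 11.20 and 11.34. A sum follows its brightest members, in the adipocyte list Fabp4, so these lower sums do not describe their lists as a whole. The adipocyte list had a median difference of 0.01 and the pericyte list one of 0.31. Of 8 pericyte genes 5 had both invasive arrays higher and 1 had both lower, beside 26.4% and 31.4% over all genes. The part of a different share of captured stroma in the genes that either compartment can express, described next, was not tested. The 21 pan-epithelial genes had a mean difference of -0.65, with 0 called in either direction. When the arrays were shifted to equal pan-epithelial signal, which moves every difference up by that amount, 1675 genes were higher (9.21%) and 84 lower (0.462%). In that setting 21 of 22 matrix, 14 of 18 fibroblast and 16 of 20 macrophage genes were higher. The medians of the pan-epithelial, basal and squamous lists changed sign with this shift, to 0.02, 0.32 and 0.45, and those of the junction and luminal lists stayed below 0, at -0.09 and -0.76.

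**Figure D2:**
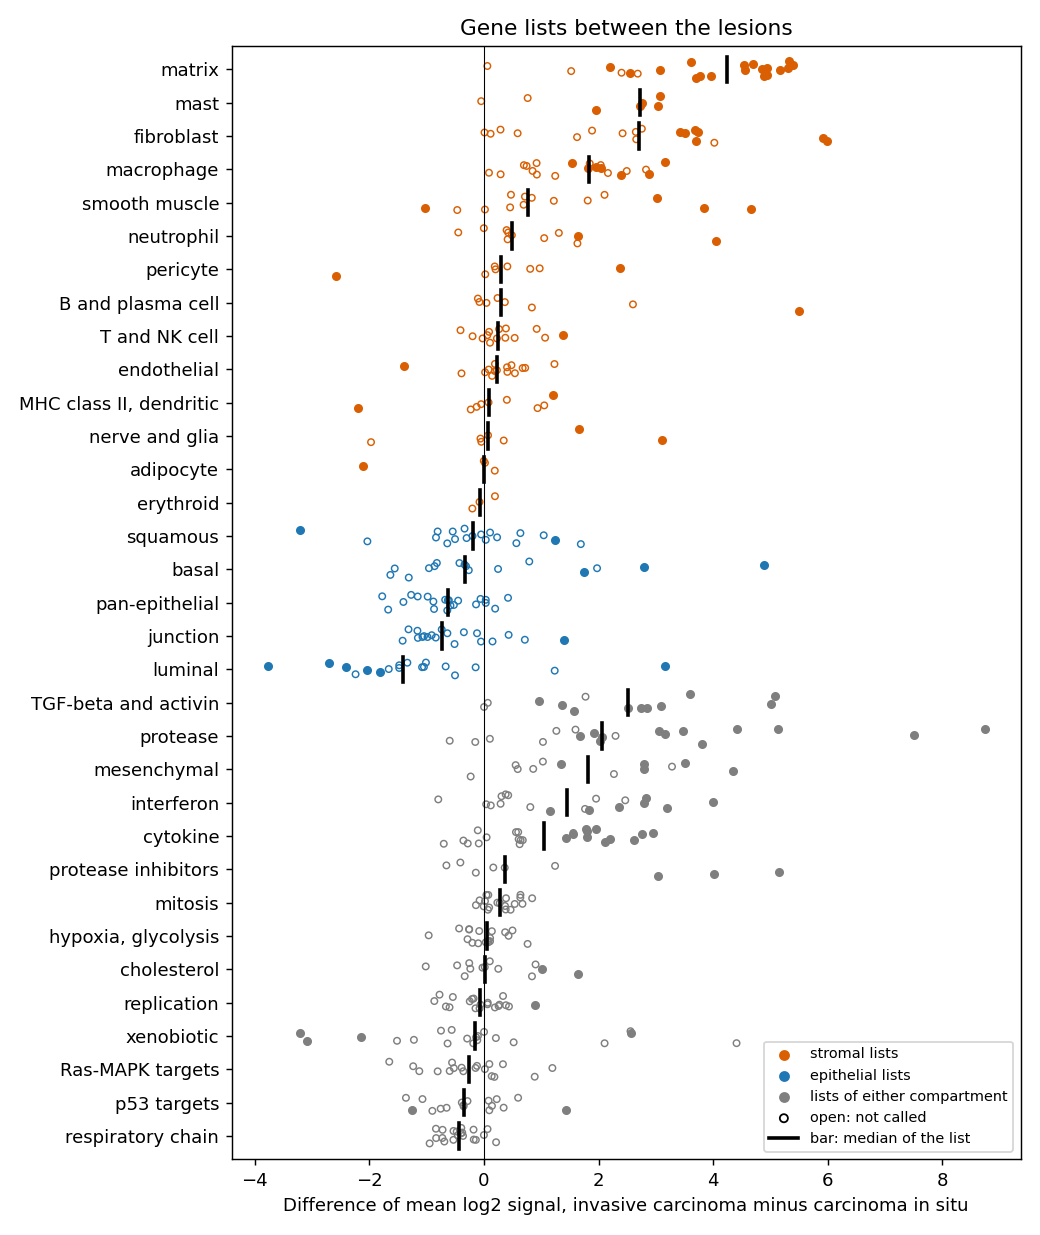
Difference of mean log2 signal between the lesions (invasive minus carcinoma in situ) for each measured member of 33 gene lists; filled points are called genes, open points are not, bars are list medians, and colours give the compartment. The medians run from 4.25 in the matrix list to -1.41 in the luminal list. Those of the mast cell, fibroblast, TGF-beta and activin, protease, macrophage, mesenchymal, interferon and cytokine lists lie between 2.73 and 1.06. The other lists lie nearer 0.

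Proteases that cut matrix, which carcinoma cells and stromal cells can both make, rose in most of their list. Matrix metalloproteinases are zinc enzymes that degrade collagens and other matrix proteins, and tissue inhibitors of metalloproteinases bind and block them. Of 19 protease genes 12 rose, 0 fell and 7 were not called, with a median of 2.06. The promoters of 3 neighbouring metalloproteinase genes are shown because these genes rose together from low signals and because each holds a match to the binding motif of AP-1, a factor of Fos and Jun proteins known to act on such genes. Each sequence is from RefSeq on GRCm38.p6 and runs 5' to 3' from 250 bases before the annotated start to 50 bases after it, at chr9:7445572-7445871 (plus strand) for Mmp3, chr9:7502092-7502391 (plus strand) for Mmp10 and chr9:7272264-7272563 (plus strand) for Mmp13. Capitals mark the motif TGANTCA, which is the same on both strands, and it begins 46 bases before the start in Mmp3, 63 in Mmp10 and 35 in Mmp13.
Mmp3: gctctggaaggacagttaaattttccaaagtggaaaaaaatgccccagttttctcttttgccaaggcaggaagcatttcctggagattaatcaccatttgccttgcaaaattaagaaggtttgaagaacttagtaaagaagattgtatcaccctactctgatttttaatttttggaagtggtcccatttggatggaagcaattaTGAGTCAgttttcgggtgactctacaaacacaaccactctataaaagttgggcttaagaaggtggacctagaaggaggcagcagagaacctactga
Mmp10: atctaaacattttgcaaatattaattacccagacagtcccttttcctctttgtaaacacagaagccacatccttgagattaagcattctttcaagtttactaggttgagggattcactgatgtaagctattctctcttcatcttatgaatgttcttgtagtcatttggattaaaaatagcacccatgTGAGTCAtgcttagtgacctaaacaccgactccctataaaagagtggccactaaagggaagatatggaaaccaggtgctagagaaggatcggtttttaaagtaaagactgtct
Mmp13: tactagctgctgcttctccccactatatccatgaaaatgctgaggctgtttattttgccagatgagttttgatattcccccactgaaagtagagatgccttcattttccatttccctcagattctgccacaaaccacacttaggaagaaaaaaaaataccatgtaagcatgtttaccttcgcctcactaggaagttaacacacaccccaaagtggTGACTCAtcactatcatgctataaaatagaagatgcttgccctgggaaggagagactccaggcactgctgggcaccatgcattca
The motif was present in 7.81% of 32851 mouse promoters of this length, in 9.29% of 732 promoters of genes called higher and in 5.33% of 225 promoters of genes called lower. In the protease list it was present in 5 of 9 promoters of called genes and in 1 of 4 promoters of genes not called. Only 13 promoters were available for the 19 genes of the list, and the 3 shown above are among the 5 with the motif. The motif was searched with the values already seen, and a match describes letters and not binding.

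Mmp3, stromelysin 1, which cuts proteoglycans and activates other proteases, read 4.55 and 4.68 in carcinoma in situ and 13.30 and 13.41 in invasive carcinoma. It rose by 8.74 ± 0.16 (427-fold, adjusted p = 9.75e-05), the largest rise by name, and read 4.99 and 4.91 in normal urothelium. Mmp13, a collagenase, read 5.39 and 5.36 against 13.12 and 12.64 (7.50 ± 0.21, 181-fold, adjusted p = 0.000385), and 3.28 and 3.44 in normal urothelium. Both genes were near the low end of the signal range outside the invasive arrays and near its top on them. Mmp10, stromelysin 2, read 5.56 and 5.38 against 10.19 and 9.59 (4.42 ± 0.24, adjusted p = 0.00138). Mmp7, matrilysin, an enzyme made by epithelial cells, read 9.88 and 9.91 against 13.78 and 13.65 (3.81 ± 0.34, adjusted p = 0.00442), and 6.77 and 5.75 in normal urothelium. Its level was therefore already higher in carcinoma in situ than on the normal arrays. Mmp2, a gelatinase made mainly by fibroblasts, read 7.38 and 7.16 against 11.86 and 12.93 (5.13 ± 0.44, adjusted p = 0.00414), and Mmp9, the other gelatinase, 5.77 and 5.64 against 7.45 and 7.79 (1.91 ± 0.24, adjusted p = 0.0129). For Mmp3, and likewise for Mmp13, the invasive arrays stood within 0.50 log2 units of each other, and Mmp2 was higher in array 2, as the fibroblast genes were. Plau, the urokinase that activates plasminogen, read 8.47 and 8.50 against 8.94 and 7.72 and was not called.

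Further members rose: Adam12 (3.48 ± 0.17), a membrane metalloproteinase whose other probe set differed by 0.34, Mmp12 (3.17 ± 0.52), the elastase of macrophages, Adamts5 (3.06), an aggrecanase, and Mmp14 (2.03 ± 0.27), the membrane protease that activates Mmp2. Of 9 protease inhibitor genes 3 rose and 0 fell. Timp1 read 6.47 and 6.16 in carcinoma in situ and 11.01 and 11.93 in invasive carcinoma (5.15 ± 0.34, 35.6-fold, adjusted p = 0.00196). Timp2 read 9.22 and 9.46 against 12.39 and 12.35 (3.03 ± 0.17, adjusted p = 0.00138), and 10.59 and 10.51 in normal urothelium. Timp3 rose by 4.02 ± 0.57. The inhibitor genes thus rose beside the protease genes, and Timp2 in carcinoma in situ was below the normal arrays. With the carcinoma in situ arrays averaged, Mmp3, Mmp13, Mmp10 and Adam12 remained called among the proteases and Timp2 among the inhibitors.

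The metalloproteinase genes lie next to each other on chromosome 9, and genes on either side of them that encode no protease rose as well. From Dync2h1 to Arhgap42, in the gene order of RefSeq on GRCm38.p6, 21 genes were measured. Of these 12 were called higher and 0 lower, with a median of 2.94 beside a background of 4.18% called higher. They were 5 of 9 metalloproteinase genes and 7 of 12 others. Birc2, an inhibitor of apoptosis and a ubiquitin ligase, read 8.74 and 8.93 in carcinoma in situ and 13.08 and 13.54 in invasive carcinoma (4.47 ± 0.23, 22.2-fold, adjusted p = 0.00132). Birc3, its paralog, read 8.80 and 8.96 against 12.23 and 12.55 (3.51 ± 0.18, adjusted p = 0.00132). Yap1, the transcriptional coactivator restrained by the Hippo pathway, read 11.42 and 11.61 against 13.96 and 14.14 (2.54 ± 0.19, adjusted p = 0.00266). Each of the 3 genes stood within 0.50 log2 units on the invasive arrays and above every other array. Normal urothelium read 9.37 and 9.70 for Birc2, 9.26 and 9.25 for Birc3, and 10.69 and 10.997 for Yap1. Arhgap42 (4.26), Cfap300 (4.19), a cilia gene, Dcun1d5 (3.54), which acts in cullin neddylation, and Dync2h1 (2.94), a dynein heavy chain of cilia, were the others called.

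Within the same stretch Tmem123 differed by 1.64 without a call, and Mmp8, Mmp20, Mmp1a, Mmp1b, Cep126, Trpc6 and the progesterone receptor gene Pgr were not called either. The 8 measured genes before the stretch and the 2 after it lay between -0.44 and 0.51, with 0 called. The median difference between the invasive arrays over the 12 called genes was -0.15, and 7 of the 12 were called in every fit that left out an array or averaged the carcinoma in situ arrays. This stretch was picked after its values were seen. DNA was not measured on these arrays, and no cause of the pattern was tested.

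**Figure D3:**
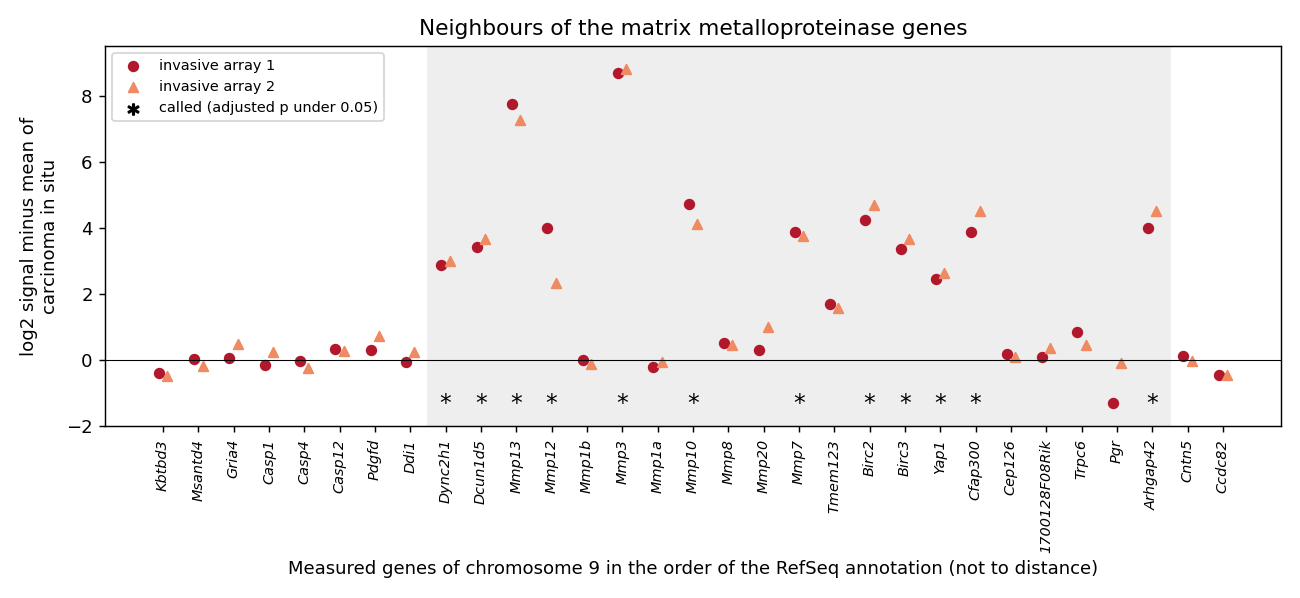
Log2 signal of each invasive array minus the mean of the carcinoma in situ arrays for measured genes of chromosome 9 in annotation order; circles are invasive array 1, triangles array 2, stars mark called genes and shading marks the stretch from Dync2h1 to Arhgap42. Called genes stand at 2.33 or more on both arrays, and the flanking genes stay near 0.

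Genes of the TGF-beta and activin family rose in most of their list. TGF-beta and activin are secreted ligands that act through SMAD proteins and are known inducers of matrix genes. Of 13 measured genes 10 rose, 0 fell and 3 were not called, with a median of 2.52. Among the ligands, Inhba, the activin A subunit, read 6.22 and 6.19 in carcinoma in situ and 9.13 and 8.76 in invasive carcinoma (2.74 ± 0.21, adjusted p = 0.00304), while its other probe set differed by 0.14. Tgfb2 read 6.76 and 6.52 against 9.60 and 9.84 (3.08 ± 0.34, adjusted p = 0.00807), and Tgfb1 7.09 and 7.06 against 6.90 and 7.26, with no call. Of the ligand genes Tgfb3 (2.52) rose too, so Tgfb2 and Tgfb3 rose and the level of the Tgfb1 transcript overlapped between the lesions. The activin antagonist gene Fst rose by 2.85 ± 0.34, the latent TGF-beta binding protein gene Ltbp2 by 3.60 and the receptor gene Tgfbr1 by 0.96, while Tgfbr2 differed by 0.07.

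The matricellular genes Ccn2 and Ccn1 led this list. Both are known targets of TGF-beta and of YAP with its TEAD partners, as is Ankrd1, a nuclear ankyrin repeat protein outside the list. The promoters of Ccn1 and Ankrd1 are shown because these genes rose with Yap1 and hold the TEAD motif, written GGAATG on 1 strand and CATTCC on the other, in capitals. They are from RefSeq on GRCm38.p6 at chr3:145649936-145650235 (minus strand) for Ccn1 and chr19:36119795-36120094 (minus strand) for Ankrd1. The motif begins 103 bases before the start in Ccn1, and 210 and 123 bases before it in Ankrd1.
Ccn1: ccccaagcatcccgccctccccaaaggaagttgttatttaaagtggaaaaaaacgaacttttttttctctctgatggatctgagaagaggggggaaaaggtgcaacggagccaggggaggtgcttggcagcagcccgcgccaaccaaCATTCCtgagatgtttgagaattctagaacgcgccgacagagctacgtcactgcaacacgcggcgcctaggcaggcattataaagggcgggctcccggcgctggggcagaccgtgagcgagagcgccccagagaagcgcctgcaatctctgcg
Ankrd1: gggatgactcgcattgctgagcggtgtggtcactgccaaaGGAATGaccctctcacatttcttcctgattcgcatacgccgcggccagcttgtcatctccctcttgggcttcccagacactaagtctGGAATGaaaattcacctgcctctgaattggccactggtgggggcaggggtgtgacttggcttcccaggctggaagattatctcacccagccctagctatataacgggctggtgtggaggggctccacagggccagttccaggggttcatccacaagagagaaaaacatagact
These letters were present in 14.66% of all 32851 promoters, in 14.2% of promoters of genes called higher and in 27 of 225 promoters of genes called lower, so the motif was no more common among the genes that rose. The promoters shown were picked with the values already seen, and that of Ccn2 is not shown. A match describes letters and not binding, and a link to Yap1 was not tested.

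Ccn1 read 6.37 and 6.42 in carcinoma in situ and 11.16 and 11.64 in invasive carcinoma (5.01 ± 0.25, 32.1-fold, adjusted p = 0.00114). Ccn2 read 8.52 and 8.45 against 13.59 and 13.53 (5.07 ± 0.60, adjusted p = 0.0103). Ankrd1 read 5.15 and 5.14 against 10.77 and 11.16 (5.83 ± 0.19, 56.7-fold, adjusted p = 0.000546). The invasive arrays stood within 0.50 of each other for all 3 genes, and Ccn1 and Ankrd1 remained called with the carcinoma in situ arrays averaged.

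Of 12 genes linked to the mesenchymal state 5 rose and 0 fell, with a median of 1.81. Vim, the intermediate filament of mesenchymal cells, read 9.88 and 9.29 in carcinoma in situ and 12.94 and 13.24 in invasive carcinoma (3.51 ± 0.26, 11.4-fold, adjusted p = 0.00265). Mme, the membrane metallopeptidase neprilysin, read 2.73 and 3.01 against 7.26 and 7.18 (4.35 ± 0.17, adjusted p = 0.000691), its other probe set differing by 0.20. Zeb1, a repressor of Cdh1, read 5.98 and 6.38 against 8.53 and 9.43 (2.80 ± 0.33, adjusted p = 0.0101). Snai2, a repressor that basal epithelial cells also express, read 11.18 and 11.22 against 11.07 and 10.86 and was not called. Cdh1 itself differed by 0.03. Fibroblasts express Zeb1 and Vim as well, and which cells gave these signals was not tested. Mme and Vim remained called with the carcinoma in situ arrays averaged.

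Genes of urothelial differentiation were the epithelial list with the most falls. Of 18 luminal genes 5 fell, 1 rose and 12 were not called, with a median of -1.41. Uroplakins are membrane proteins that form the plaques of the bladder surface. Upk3a read 11.58 and 11.71 in carcinoma in situ and 6.84 and 8.91 in invasive carcinoma (-3.77 ± 0.65, adjusted p = 0.0320), and 14.09 and 13.63 in normal urothelium. Upk1b read 13.16 and 13.34 against 10.50 and 11.19 (-2.41 ± 0.30, adjusted p = 0.0116), and Upk1a 9.28 and 9.19 against 7.43 and 7.42 (-1.81 ± 0.17, adjusted p = 0.00512). Upk2 differed by -1.48 ± 0.30 and missed the threshold (adjusted p = 0.0538). All 4 were highest in normal urothelium, lower in carcinoma in situ and lowest in invasive carcinoma, with no overlap between the groups. Cldn8, a claudin of tight junctions, read 9.02 and 9.24 against 6.56 and 6.32 (-2.69 ± 0.42), and Psca, a surface antigen, 11.67 and 11.96 against 9.85 and 9.69 (-2.04 ± 0.39).

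Krt20, the keratin of the umbrella cells at the bladder surface, went the other way. It read 11.55 and 10.14 in normal urothelium, 5.74 and 5.92 in carcinoma in situ and 9.46 and 8.51 in invasive carcinoma (3.15 ± 0.53, adjusted p = 0.0296). The luminal transcription factor genes Gata3 (-1.34 ± 0.30, adjusted p = 0.0684) and Pparg (-1.48 ± 0.66) were not called. The luminal falls exceeded those of the pan-epithelial list, whose median was -0.63, and 4 luminal genes were called lower with the arrays shifted to equal pan-epithelial signal. With the carcinoma in situ arrays averaged, 0 of the 6 luminal calls remained.

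Of 16 basal genes 3 rose, all keratins of stressed or wounded epidermis, and 0 fell, with a median of -0.32. Krt17 read 3.91 and 3.61 in carcinoma in situ and 8.97 and 8.32 in invasive carcinoma (4.89 ± 0.26, 29.6-fold, adjusted p = 0.00138), and its call remained with the carcinoma in situ arrays averaged. Its other probe set differed by 1.04, a much smaller change. Krt6b read 5.01 and 4.92 against 8.27 and 7.25 (2.79 ± 0.34, adjusted p = 0.0112) and Krt16 5.28 and 4.70 against 7.06 and 6.42 (1.75 ± 0.30, adjusted p = 0.0308). All 3 were higher in invasive array 1 than in array 2, the reverse of the collagen genes. Krt5, the keratin of basal cells, read 13.57 and 13.68 against 13.21 and 12.31 (-0.86 ± 0.38), and Trp63, the transcription factor of basal epithelium, 12.11 and 12.21 against 11.10 and 10.11 (-1.56 ± 0.34, adjusted p = 0.0641), neither of them called. Krt14 was high in both lesions, at 12.61 and 12.60 and at 13.44 and 13.35.

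Calls in the squamous and junction lists were about as frequent as over all genes, of which 4.18% were called higher and 1.31% lower. In the squamous list 1 of 19 genes rose and 1 fell. Rptn, repetin, a protein of the cornified envelope, read 6.65 and 6.74 against 3.67 and 3.31 (-3.21 ± 0.41, adjusted p = 0.0129), with other probe sets at -0.19 and 0.08. Sbsn, suprabasin, rose by 1.24 ± 0.21. Of 19 junction genes Pkp2, the desmosomal plakophilin 2, rose by 1.41 ± 0.23 and 0 fell, with a median of -0.74, and Cldn3, Dsp and Tjp1 differed by 0.71, -0.05 and -0.91 without a call.

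Inflammatory genes rose in part. Of 24 cytokine genes 11 rose and 0 fell, with a median of 1.06. Il6, a cytokine of the acute phase, read 3.26 and 3.13 in carcinoma in situ and 6.14 and 6.15 in invasive carcinoma (2.95 ± 0.19, adjusted p = 0.00196). Ptgs2, the inducible cyclooxygenase, read 8.10 and 7.80 against 10.85 and 10.28 (2.61 ± 0.49, adjusted p = 0.0427), and 5.07 and 3.62 in normal urothelium. Cxcl1, a neutrophil chemokine, rose by 1.80 ± 0.23 and Csf1, the macrophage growth factor, by 2.203 ± 0.25, whereas Il1b read 7.98 and 8.12 against 8.22 and 7.66. The interleukin-1 genes Il1a, Il1b and Il33 were all uncalled, at -0.70, -0.11 and -0.36. Of 18 interferon response genes 7 rose and 0 fell, with a median of 1.46. Ifit3, an interferon-induced RNA-binding protein, read 5.12 and 5.35 against 8.36 and 8.51 (3.20 ± 0.17, adjusted p = 0.00138) and remained called with the carcinoma in situ arrays averaged. Ifit1 rose by 3.99 ± 0.34 and the chemokine gene Cxcl10 by 2.83 ± 0.22, but Mx1, an antiviral GTPase, read 6.93 and 7.55 against 6.63 and 6.25. Of the 18 genes 14 had both invasive arrays higher and 1 had both lower, beside 26.4% and 31.4% over all genes. The size of the difference varied within the list: the Ifit genes and Cxcl10 rose, while Psmb8, Psmb9, Tap1 and Irf1 lay between 0.04 and 0.38.

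Lists of proliferation and growth signalling held from 0 to 2 calls each, which with lists of this size is near the 5.49% called over all genes. Of 19 mitosis genes 0 were called, with a median of 0.28, and Mki67, a protein of dividing cells, read 9.43 and 9.44 in carcinoma in situ and 10.12 and 10.02 in invasive carcinoma (0.64 ± 0.18, adjusted p = 0.135). In normal urothelium it read 5.74 and 6.10, so it was high in both lesions. Of 20 replication genes Rrm2, a subunit of ribonucleotide reductase, rose by 0.90 ± 0.16, which its other probe sets did not show at 0.05 and 0.09. Of 18 genes induced by Ras and MAPK signalling 0 were called, with a median of -0.25. Etv5, a transcription factor under MAPK control, read 8.56 and 8.77 against 6.93 and 7.09 (-1.65 ± 0.36, adjusted p = 0.0669). Of 17 p53 target genes the death receptor gene Fas rose by 1.42 ± 0.25 and the cyclin gene Ccng1 fell by 1.26 from 12.16 and 11.96, and the remainder, Cdkn1a included, were not called.

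Among the metabolic lists that of detoxification held the most calls, mostly downward. Of 20 xenobiotic and retinoid genes 3 fell and 1 rose, beside 1.31% and 4.18% over all genes, with a median of -0.16. The largest difference in the list was a rise without a call, that of Aldh3a1 (4.41 ± 1.13, adjusted p = 0.0998). Gstm1, a glutathione transferase, read 13.63 and 13.86 in carcinoma in situ and 10.76 and 10.57 in invasive carcinoma (-3.08 ± 0.24, adjusted p = 0.00301). Adh1, an alcohol and retinol dehydrogenase, read 11.88 and 12.02 against 7.89 and 9.60 (-3.21 ± 0.54, adjusted p = 0.0302), and 13.66 and 13.27 in normal urothelium. Gsta2 fell by 2.14 and Aldh1a2, which makes retinoic acid and is expressed in mesenchyme, rose by 2.56 ± 0.47. Of 13 cholesterol genes Cyp51 (1.64) and Insig1 (1.01) rose. Of 20 respiratory chain genes and of 18 glycolysis and hypoxia genes 0 were called, with medians of -0.43 and 0.05. With arrays shifted to equal pan-epithelial signal the medians of the respiratory chain, Ras and MAPK, p53 target, xenobiotic and replication lists turned positive, at 0.22, 0.40, 0.29, 0.49 and 0.58.

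Among the largest changes by name several belonged to no list. Reg3b, a secreted C-type lectin of injured gut and pancreas, read 4.86 and 4.84 in carcinoma in situ and 12.77 and 12.40 in invasive carcinoma (7.74 ± 0.19, 213-fold, adjusted p = 0.000298). Onecut2, a transcription factor of liver and nervous system development, read 4.09 and 4.34 against 11.35 and 10.48 (6.70 ± 0.36, 104-fold, adjusted p = 0.00138), and its other 2 probe sets differed by 6.64 and 6.97. Sfrp2, a secreted Wnt modulator, read 5.07 and 4.66 against 10.30 and 10.95 (5.76 ± 0.28, adjusted p = 0.00114). Each of these genes was low in normal urothelium too, at 5.63 or below. Chil4, a chitinase-like protein, rose by 5.69 ± 0.58 and Hs6st2, which sulfates heparan sulfate, by 5.60 ± 0.22. Of the 10 largest rises 9 remained called with the carcinoma in situ arrays averaged, all but Chil4, whose adjusted p was then 0.0989.

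Among the 10 largest falls Fbp1, the gluconeogenic enzyme fructose-bisphosphatase, was the only gene that stayed called in that setting (adjusted p = 0.0389). It read 11.65 and 11.84 in carcinoma in situ, 7.13 and 7.16 in invasive carcinoma (-4.60 ± 0.21, 24.2-fold lower, adjusted p = 0.000922) and 8.82 and 9.27 in normal urothelium. Cxcl15, an epithelial chemokine known from mouse lung, read 9.42 and 9.62 against 4.54 and 5.50 (-4.50 ± 0.33, adjusted p = 0.00265). Lipm, a lipase of keratinocytes, read 10.09 and 10.23 against 7.27 and 6.17, and 5.72 and 6.02 in normal urothelium. Padi3, a peptidylarginine deiminase of keratinising cells, fell by 3.20 from 11.20 and 11.14. For Fbp1, Cxcl15, Lipm and Padi3 carcinoma in situ was the highest of the 3 groups. Fam25c, by contrast, fell from 13.31 and 13.41 in normal urothelium through 12.29 and 12.23 to 7.78 and 9.29, and Cyp4f15, a cytochrome P450, from 12.14 and 12.71 through 9.20 and 9.19 to 6.01 and 6.01.

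**Figure D4:**
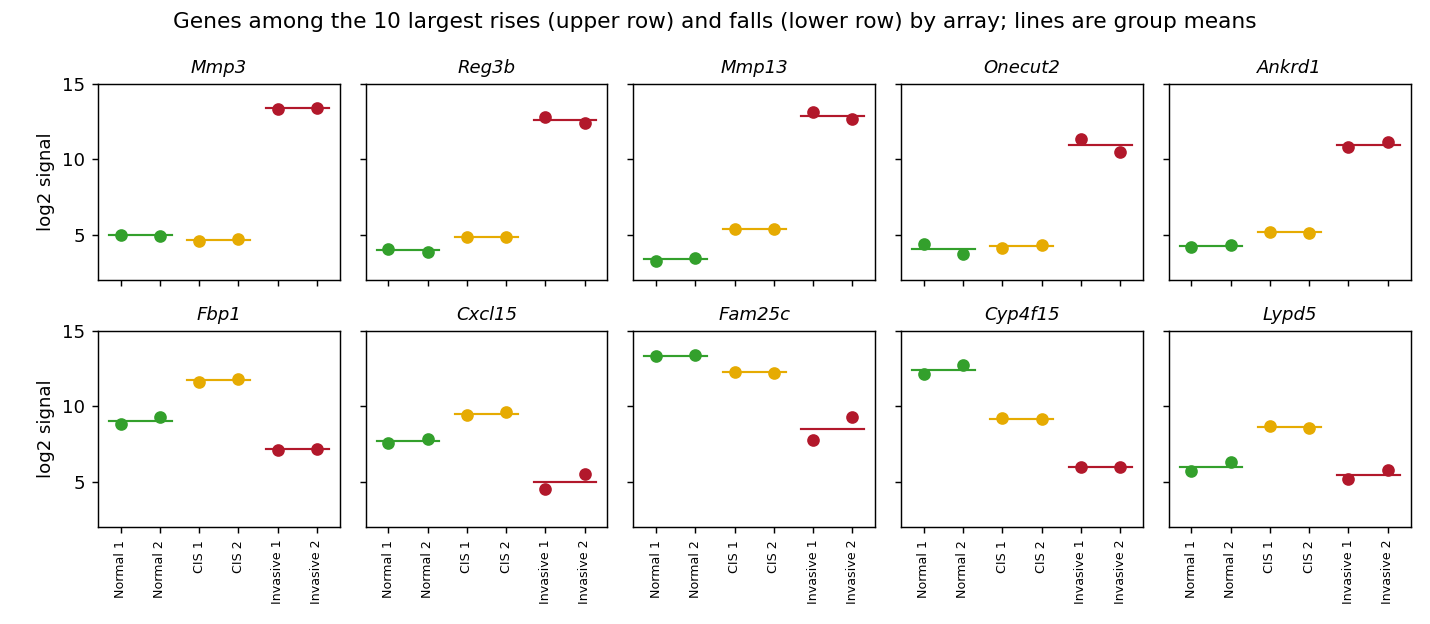
Log2 signal on each of the 6 arrays for 5 of the 10 largest rises (upper row) and 5 of the 10 largest falls (lower row); points are arrays and lines are group means. The rising genes lie at or below 5.39 outside the invasive arrays, and the falling genes differ in whether normal urothelium lies above or below carcinoma in situ.

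The level in normal urothelium separated the falls into 2 kinds. Of the 239 genes called lower, 96 (40.2%) had both normal arrays above both carcinoma in situ arrays, 107 (44.8%) had both below, and 36 overlapped. Upk3a, Fam25c, Adh1, Cyp4f15, the transmembrane protease gene Tmprss11a, Cldn8, Prom2 and Acer2 led the former by size. Fbp1, Cxcl15, Lipm, Rptn, Padi3, Lypd5, Dpyd and Lipk led the latter. Of the 760 genes called higher, 213 (28.03%) had both normal arrays above both carcinoma in situ arrays and 336 (44.2%) had both below. Over all 18193 genes these shares were 25.1% above and 29.3% below. These counts use carcinoma in situ in the contrast and in the split, so they describe the levels and were not tested.

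The invasive arrays differed from each other in the levels of fibroblast, matrix and epithelial genes. Over the fibroblast list the median of invasive array 1 minus array 2 was -1.29, with 0 of 18 genes higher in array 1. It was -0.82 over the matrix list and -0.83 over the macrophage list. Over the pan-epithelial list it was 0.84, with 21 of 21 genes higher in array 1, and over the junction, basal and luminal lists 0.75, 0.71 and 0.55. Over the protease list it was -0.12 and over the cytokine list 0.29, and over all genes -0.02. The mast cell list went the other way from these stromal lists, at 0.41 with 6 of 7 genes higher in array 1, and the neutrophil list was split, with 5 genes higher in array 1 and 6 in array 2. Invasive array 2 thus had the higher fibroblast, matrix and macrophage signal and the lower epithelial signal. Between the carcinoma in situ arrays the same medians were 0.00 for the fibroblast list and -0.10 for the pan-epithelial list.

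With a difference of 0.50 log2 units between the invasive arrays as the boundary, chosen after the values were seen, 269 of the 760 genes called higher (35.4%) were higher in array 2, 57 (7.50%) were higher in array 1 and 434 lay between. Over all genes the shares were 7.30% for array 2 and 10.99% for array 1. Of the matrix list 14 of 22 genes and of the fibroblast list 16 of 18 were on the array 2 side, and of the pan-epithelial list 16 of 21 were on the array 1 side. The largest rises on the array 1 side, where the epithelial signal was higher, were Onecut2, Chil4, Gt(ROSA)26Sor, Reg1, Krt17, Prom1, Olr1 and Chil3. Those on the array 2 side were Fbln2, Dcn, Sfrp2, Jchain, Loxl1, Col1a1, Penk and Col5a1. Those between were Mmp3, Reg3b, Mmp13, Ankrd1, Hs6st2, Vcan, Cp and Ptger3. The side of a gene describes 2 arrays and was not tested.

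**Figure D5:**
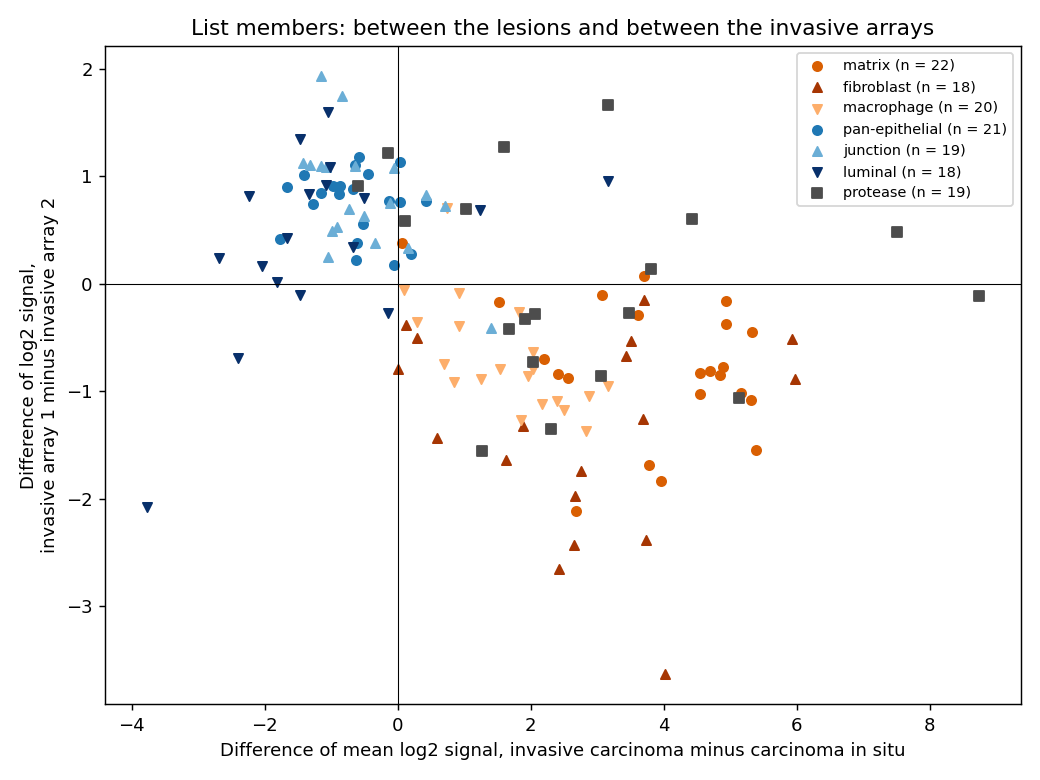
Each point is a member of 1 of 7 gene lists, placed by its difference between the lesions (horizontal axis, log2 units) and by its difference between the invasive arrays (vertical axis, array 1 minus array 2, log2 units). Matrix, fibroblast and macrophage genes lie mostly to the right and below 0, pan-epithelial and junction genes mostly to the left and above 0, and protease genes on both sides of 0.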

How the data were processed

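Per the labels' protocols, total RNA was extracted with a micro column kit from laser-captured cells and labelled for Affymetrix arrays. The submitters' processing notes name Partek and RMA without versions, and no genome build is given in the sources used here. RMA normalizes all arrays to a common distribution, which removes differences in total RNA, and compresses small signals. The deposited table held log2 signals of 45101 probe sets on 6 arrays and was used as deposited. The authors' deposited fold changes, signed scores per comparison, matched 2 to the power of the difference in mean log2 signal for 45101 of 45101 probe sets (tolerance 0.006) and enter no result.

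Probe sets were named through the array's annotation table: 34958 had 1 symbol, 932 several and 9211 none, and 34945 of the former, control probe sets excluded, were tested under their gene name, 34741 of them found by Entrez identifier in RefSeq's gene table of GRCm38.p6. For each gene the probe set with the highest mean of the 6 arrays was kept, which gave 18193 genes, 9010 of them with more than 1 probe set. For 0 called genes was another probe set called in the opposite direction. The titles gave the groups. A linear model of the 3 groups was fitted to all 6 arrays (lmFit and eBayes of limma 3.58.1, R 4.3.3), with the contrast invasive minus carcinoma in situ, two-sided p-values, Benjamini-Hochberg adjustment over 18193 genes and calls at an adjusted p under 0.05. Errors are the model's standard errors, and the number of arrays, 2 per group, limits the precision. The script was tested on simulated data.

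The gene lists, the naming rule and the comparison itself were chosen with earlier results of these data known, so lists are described by counts and medians without a set test. Named are the 10 largest rises and 10 largest falls with separate arrays, leaving out provisional symbols and antigen receptor segments, up to 5 called members of each list with the largest change (up to 8 for the fibroblast, matrix, luminal, basal and protease lists), defining lineage genes, and sex-linked genes. Further genes, among them the neighbours on chromosome 9 and the uncalled members given as contrasts, were chosen after their values were seen. Alternatives left out each array, averaged the carcinoma in situ arrays, used only the lesion arrays, paired the replicate numbers, changed the probe set rule, the filter, the variance model and the scaling, or tested against a minimum difference of 1 log2 unit.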

Additional observations from a re-analysis of the deposited data

How the results depend on the processing

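Values under alternatives were compared only for the 109 named genes called, and none of these reversed. Of 1587 such values 1168 kept the call and 419 lost it. The fit of the lesion arrays alone enters these counts again under each setting without a normal array. It kept the call for all 109 named genes called, which raises the count of calls kept. Leaving out an array gave from 50 to 2493 called genes in all, from 14 to 198 among list genes (122 as reported) and from 20 to 109 among the 109 named genes called. The low ends came without carcinoma in situ array 2 and the high ends without a normal array, which leaves the same fit as the lesion arrays alone, with 2493 called (59.6% higher, beside 76.1% as reported) and 198 list genes. With the carcinoma in situ arrays averaged, 55 genes, 15 list genes and 21 named genes were called. Restricting to genes above the median mean signal gave 420, 62 and 54, and testing against a minimum difference of 1 log2 unit gave 238, 46 and 53. Testing every probe set gave 1502 calls among 45037. Arrays shifted to equal pan-epithelial signal gave 1759 calls (95.2% higher) and 183 list genes, and arrays shifted to a common median gave 1043, of which 659 were higher (63.2%). With the replicate number as a block, 887 genes, 114 list genes and 97 named genes were called. The numbers do not pair the samples: the labels do not say that a number marks a shared animal, and the deviations of same-numbered arrays correlated at -0.39 between normal urothelium and carcinoma in situ, 0.37 between normal urothelium and invasive carcinoma, and -0.34 between the lesions. A crossed pairing, chosen after seeing the data, gave 1449 calls (1006 higher, 443 lower). The cause of these shifts was not tested. Group means rest on 2 arrays, signals near the low end are compressed, and folds of such genes are therefore understated.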

Other observations

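Of the 50 genes called in every fit that left out an array or averaged the carcinoma in situ arrays, several mark epithelia or secretory cells and belong to no list; they were picked after their values were seen. Aqp5, a water channel of secretory epithelia, read 5.66 and 5.85 in carcinoma in situ and 10.34 and 10.70 in invasive carcinoma (4.77 ± 0.19). Msln, the surface protein mesothelin, read 7.03 and 6.92 against 11.40 and 11.82 (4.63 ± 0.20), and Olfm4, a secreted glycoprotein of intestinal crypts, 5.45 and 5.38 against 9.996 and 9.87 (4.52 ± 0.17). Cp, the copper-binding ferroxidase ceruloplasmin, rose by 5.30 ± 0.21, Slc7a2, a transporter of cationic amino acids, by 5.08 ± 0.19, and Ptger3, a prostaglandin E receptor, by 5.13 ± 0.34. The other 3 probe sets of Slc7a2 differed by 0.55 to 1.18 and the other probe set of Ptger3 by 0.07. Grem1, an antagonist of BMP ligands, read 4.72 and 4.73 against 9.54 and 9.52 (4.80 ± 0.15), Bmper, another BMP modulator, rose by 4.04 and the Wnt inhibitor gene Wif1 by 2.75. Vcam1, an adhesion molecule for leukocytes, read 6.10 and 5.90 against 10.35 and 10.58 (4.46 ± 0.17). For Aqp5, Msln, Olfm4, Grem1 and Vcam1 the invasive arrays stood within 0.50 log2 units of each other.

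Genes called higher also lay together elsewhere. Windows of 10 neighbouring genes held on average 0.42 genes called higher and 0.13 called lower. Among 17951 such windows, which overlap each other, 17 held at least 6 genes called higher, and 0 held 6 called lower. The 17 windows lay on chromosomes 5, 6, 9, 14 and 19, and those on chromosome 9 overlap the stretch described above. On chromosome 19 a window from Acta2 to Slc16a12, which holds Fas and the Ifit genes, had 7. On chromosome 14 a window from Mcpt2 to Gzmc held a mast cell protease and granzymes of killer cells. Mcpt2 read 7.92 and 7.78 in carcinoma in situ and 11.42 and 10.11 in invasive carcinoma. Gzmc, Gzmd, Gzmg, Gzme and Gzmf rose by 2.33, 2.31, 2.17, 1.33 and 1.07 from signals below 4. Their means in invasive carcinoma were 6.11, 5.19, 6.01, 4.95 and 4.65, near or below the array medians. In the T and NK cell list, which holds Gzma and Gzmb, only Il7r was called. On chromosome 5 Steap1, Steap2 and Steap4, of a family of metalloreductases, rose by 4.002, 2.32 and 3.73 beside Cyp51. Probes of related neighbours such as the granzymes may share signal, which was not tested.

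Gt(ROSA)26Sor, a noncoding transcript, read 9.27 and 8.21 in normal urothelium, 2.96 and 3.33 in carcinoma in situ and 8.79 and 7.78 in invasive carcinoma. Of 617 genes on the X chromosome 43 were called (6.97%, beside 5.49% of all genes), and 3 called genes lay on the Y chromosome. Igha, the constant region of immunoglobulin A, read 6.41 and 6.42 in carcinoma in situ and 11.19 and 13.11 in invasive carcinoma, higher in invasive array 2 as Jchain was. Aldh3a1, an aldehyde dehydrogenase, read 5.81 and 5.72 against 10.03 and 10.32, but 6.21 and 9.97 in normal urothelium, and was not called (adjusted p = 0.0998). Of 10092 probe sets without a single symbol 181 were called.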
